A study of Mus musculus with 6 samples.

Results

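The IL-6 receptor and STAT3 axis was followed through 10 genes in Th17 cells cultured with or without desIgf1, a shortened form of IGF-1 that IGF-binding proteins hold only weakly. The genes were chosen by their place in the pathway and matched by symbol to the Ensembl identifiers of the count files: the receptor genes Il6ra and Il6st, the kinase genes Jak1, Jak2 and Tyk2, the transcription factor gene Stat3, the feedback inhibitor genes Socs3, Socs1 and Cish, and the kinase gene Pim1. All 10 were found among the 39179 genes of each file, and all 10 passed the filter on low counts that left 13846 genes. The measure is messenger RNA, so neither protein nor phosphorylation of STAT3 was recorded.

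The study sequenced 6 libraries, 3 from cultures with 30 ng/mL desIgf1 and 3 control cultures without it, to ask whether insulin-like growth factor signalling changes what Th17 cells express. Both groups came from naive CD4+ T cells of C57BL/6 spleen whose Il17a, Ifng and Foxp3 loci report through human CD2, Thy1.1 and GFP. Both groups were kept for 5 days on irradiated, CD4-depleted splenocytes with 5 µg/mL anti-CD3 in solution. Both also received 20 ng/mL IL-6 and 2.5 ng/mL TGF-β, while IFN-γ and IL-4 were blocked by antibodies at 10 µg/mL each. RNA was taken from cells sorted as human CD2 positive and negative for Thy1.1 and GFP. Added IL-6 was therefore shared by the controls, and the contrast is of desIgf1 on top of it. The treatment text lists desIgf1 for every library, and the groups follow the titles and the series design. No label gives the age of the animals or says whether libraries came from separate animals or cultures, so a p-value measures only the spread between these libraries.

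IL-6 binds the alpha chain encoded by Il6ra, and the complex recruits gp130, the signalling chain encoded by Il6st that related cytokines share. JAK1, JAK2 and TYK2 sit on gp130 and phosphorylate STAT3, which enters the nucleus and, in T cells, drives Th17 genes such as Il17a. STAT3 and the IL-2-activated STAT5 also induce their own brakes: SOCS3 binds gp130 and the JAKs, SOCS1 inhibits JAKs directly, and CIS, encoded by Cish, acts mainly on receptors that use STAT5. PIM1 is a serine/threonine kinase induced by the same STATs that promotes survival and growth.

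Of the 10 genes, Il6ra and Jak2 were the pair whose desIgf1 and control libraries did not overlap, as was so for 13.5% of all tested genes, and they lay on opposite sides. Il6ra was lower with desIgf1 and Jak2 was higher. The 250 bases before their annotated starts (RefSeq, GRCm38.p6, gene strand, 5′ to 3′) are shown for this reason. They lie at chr3:89913197-89913446 on the minus strand for Il6ra and at chr19:29251553-29251802 on the plus strand for Jak2, and no base of either falls in an exon of its gene in GENCODE M21. Lower case is used throughout because neither holds the motif searched.
Il6ra: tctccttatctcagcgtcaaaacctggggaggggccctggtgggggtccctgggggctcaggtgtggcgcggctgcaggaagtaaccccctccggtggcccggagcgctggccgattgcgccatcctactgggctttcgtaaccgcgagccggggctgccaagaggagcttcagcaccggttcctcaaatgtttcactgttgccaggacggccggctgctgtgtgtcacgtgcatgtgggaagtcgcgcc
Jak2: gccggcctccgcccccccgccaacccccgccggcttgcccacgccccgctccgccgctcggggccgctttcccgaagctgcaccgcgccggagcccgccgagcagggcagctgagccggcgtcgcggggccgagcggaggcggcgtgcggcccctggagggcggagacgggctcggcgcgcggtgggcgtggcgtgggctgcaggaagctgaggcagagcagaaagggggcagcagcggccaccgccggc
The motif searched was TTCNNNGAA, the palindrome that STAT dimers bind, which reads the same on both strands and includes the tighter form TTCCNGGAA. It was present in 7.02% of the 32851 upstream windows of this length, and the tighter form in 0.913%. RefSeq held a window for all 10 genes, 11 in all because Pim1 has a pair of starts. Only that of Socs3 held a match, at chr11:117969512-117969520 on the minus strand, centred 150 bases before the RefSeq start, with capitals marking the match below, and none held the tighter form.
Socs3: TTCTTAGAA
A run of bases just after this RefSeq start was in no GENCODE M21 transcript of Socs3, so the distance depends on the annotation, and the windows of Jak1, Socs3, Cish and Pim1 partly or wholly overlap exons of other transcripts of the same gene. A match is a description of letters and not a bound site, and sites outside these windows were not searched.

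Il6ra (chromosome 3, 89864059 to 89913196) stood at 199, 196 and 185 CPM (counts scaled to the library size, with TMM factors) across control libraries 1, 2 and 3, against 107, 126 and 119 CPM across desIgf1 libraries 1, 2 and 3. Every control library lay above every desIgf1 library, and the spread inside each group was small, with an SD of 3.99% of the mean in controls and 8.0% with desIgf1. The group means were 193 ± 7.71 and 117 ± 9.40 CPM (SD, n = 3), a log2 fold change of -0.72 ± 0.10 (SE) with a 95% interval from -0.94 to -0.50. It did not pass edgeR's quasi-likelihood test (Benjamini-Hochberg adjusted p = 0.112) although its p was the 12th smallest of 13846. With the replicate number as a block the log2 fold change was again -0.72 (adjusted p = 0.0577). By number the differences were -0.89, -0.64 and -0.63 in log2 CPM.

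DESeq2 called Il6ra with an adjusted p of 2.46e-07, and edgeR without the filter on low counts called it with 0.0441, in a setting that called 0.0711% of all genes. Over all settings tried the log2 fold change ran from -0.78 to -0.64 and the adjusted p from 2.46e-07 to 0.605, the last without desIgf1 library 1.

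The other receptor chain did not separate. Il6st (chromosome 13, 112464070 to 112510086) had control values of 277, 147 and 286 CPM against desIgf1 values of 211, 183 and 198 CPM. Control library 2 lay below all desIgf1 libraries and the other two controls above them. The log2 fold change was -0.26 ± 0.24 (adjusted p = 0.752), with an interval from -0.82 to 0.29 that spans both a fall and a rise. Per exon length the ratio of Il6ra to Il6st was 0.923, 1.71 and 0.829 in controls and 0.654, 0.884 and 0.773 with desIgf1, so the ratio of the receptor chains overlapped between groups.

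The genes whose level followed Il6ra most closely over the 6 libraries, among 9002 genes at a mean of 10 CPM or more, were Cep68, Safb, Tbc1d22b, Eps15l1 and Aqp3, with Pearson's r of 0.97 to 0.99 in log2 CPM. All 5 were lower with desIgf1 in every library, which the choice by r largely fixed. None passed edgeR's test (adjusted p = 0.302 to 0.608), while DESeq2 called Aqp3 (adjusted p = 0.00206), where it called 1.46% of all genes. Cep68 encodes a centrosomal protein and Aqp3 a channel for water and glycerol. Aqp3 averaged 201 ± 11.0 CPM without and 140 ± 13.0 CPM with desIgf1. With 6 libraries in 2 groups, such an r mainly describes a gene that is steady within groups and differs between them in the direction of Il6ra.

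Il6ra is a gene of resting T cells as well as of myeloid cells, so markers of both are given. Of 7 naive T cell markers, 3 (Lef1, S1pr1 and Klf2) lay below the controls in every desIgf1 library and 4 overlapped. Of the 13846 tested genes 855 lay below in the same way. The 4 that overlapped were Satb1 (log2 fold change 0.46), Il7r (0.072), Ccr7 (0.025) and Tcf7 (-0.15). Satb1 was higher with desIgf1 in each replicate number. In the blocked fit 1 of the 7 fell, Klf2 (adjusted p = 0.0245), where 0.137% of all genes were called lower. DESeq2 called Klf2 (adjusted p = 0.00211) and Lef1 (0.0341), where it called 1.46% of all genes. The summed level of the 7 markers, mostly Tcf7 and Satb1, overlapped, at 3942 to 4833 CPM in controls and 3512 to 5086 CPM with desIgf1. Macrophage and monocyte markers summed to 91.6 to 180 CPM in controls and 150 to 177 CPM with desIgf1, mostly Ctss. Lyz2 reached 305 counts and Cd68 327 counts in their highest library, and C1qa and Adgre1 no more than 6 counts in any. Neutrophil markers, genes of another cell rich in Il6ra, summed to 0.716 CPM at most. The part of the naive markers in the Il6ra difference was not tested, and in bulk RNA fewer cells with a transcript and less of it per cell cannot be told apart.

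Among the kinases, Jak2 stood apart. Jak2 (chromosome 19, 29251828 to 29313080) measured 628, 610 and 678 CPM across the controls and 971, 1054 and 802 CPM across the desIgf1 libraries. All 3 desIgf1 libraries were above all controls, and the number 3 libraries were the closest to each other. The means were 639 ± 35.2 and 942 ± 128 CPM, a 1.48-fold difference (log2 0.56 ± 0.12, interval 0.27 to 0.85). It did not pass edgeR's test without the block (adjusted p = 0.333) or with it (log2 0.55 ± 0.13, adjusted p = 0.166), while DESeq2 called it (adjusted p = 0.0101). The log2 fold change ran from 0.44 to 0.71 over all settings. By number the differences were 0.63, 0.79 and 0.24.

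Jak1 (chromosome 4, 101152367 to 101265282) had control values of 832, 661 and 923 CPM against desIgf1 values of 713, 745 and 770 CPM. The desIgf1 libraries lay within the range of the controls, and the log2 fold change was -0.12 ± 0.14 (adjusted p = 0.819, interval -0.43 to 0.20). Tyk2 (chromosome 9, 21104068 to 21131243) measured 117, 117 and 157 CPM across the controls and 123, 126 and 140 CPM across the desIgf1 libraries. Its log2 fold change was -0.012 ± 0.14 (adjusted p = 0.985), with an interval from -0.33 to 0.31, or 0.793-fold to 1.24-fold. The ratio of Jak2 to Jak1 per exon length was 1.08, 1.33 and 1.06 in controls and 1.96, 2.03 and 1.5 with desIgf1, without overlap. The ratio of Tyk2 to Jak1 was 0.172 ± 0.0205 in controls and 0.183 ± 0.00648 with desIgf1, and overlapped.

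Stat3 (chromosome 11, 100885098 to 100939540) had control values of 615, 548 and 605 CPM against desIgf1 values of 638, 758 and 600 CPM. Library 2 was high with desIgf1 and low in the controls, and numbers 1 and 3 differed little, by 0.052 and -0.012 in log2 CPM against 0.47 for number 2. The log2 fold change was 0.18 ± 0.12 (adjusted p = 0.688), with an interval from -0.10 to 0.45. Exons of Stat3 overlap those of Stat5a on the other strand. The library kit marks strand, and the word reverse in the names of the count files is one of HTSeq's strand options. Of 72 genes whose exons lie wholly inside exons of an opposite-strand gene with at least 10000 counts, 61 had counts, at a median of 0.0303% of the enclosing gene's, whereas a counter that ignores strand sets such reads aside. The 2 genes' reads were thus counted by strand as far as this check shows. Stat5a itself averaged 217 ± 33.3 CPM without and 261 ± 23.8 CPM with desIgf1 (adjusted p = 0.630). Raver2 (327 to 553 counts per library) overlaps exons of Jak1 from the other strand, and opposite-strand genes with at most 95 counts overlap exons of Tyk2, Cish and Pim1. Il6ra overlaps the antisense gene Gm42809, which the files do not list.

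**Figure D1:**
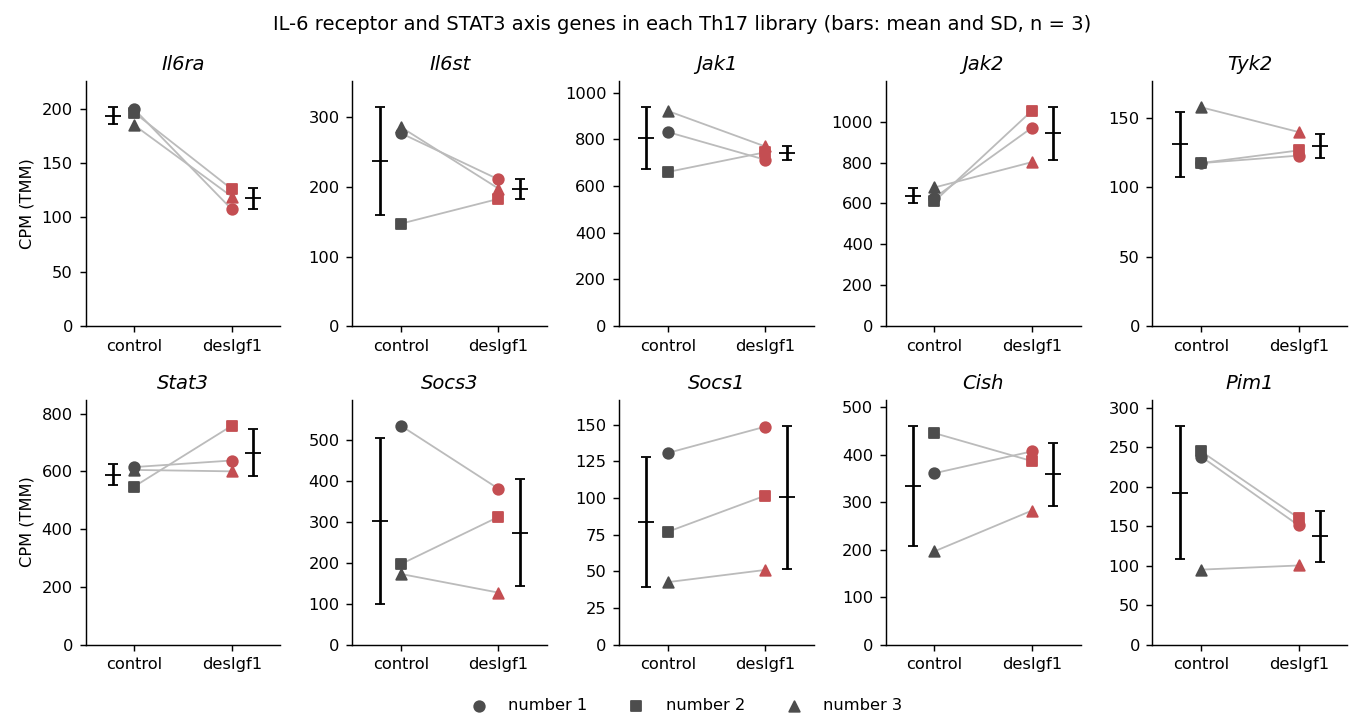
Level of each gene in CPM with TMM factors (linear axis from 0) in 3 control and 3 desIgf1 libraries, with lines joining libraries of the same number and bars for mean and SD. Il6ra and Jak2 separate into groups without overlap, whereas in Socs3, Socs1, Cish and Pim1 the number 3 libraries are the lowest of both groups.

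The 4 feedback and target genes varied with the replicate number more than with desIgf1. Socs3 (chromosome 11, 117966079 to 117970047) measured 534, 196 and 172 CPM across the controls and 380, 312 and 127 CPM across the desIgf1 libraries. The highest control was 3.10-fold above the lowest, and the highest desIgf1 library 3.0-fold above the lowest, so the groups overlapped widely. Without the block the log2 fold change was -0.14 ± 0.54 (adjusted p = 0.952), with an interval from -1.42 to 1.14. That interval leaves room for a fall or a rise of more than 2-fold. With the block the value was -0.093 ± 0.24 (adjusted p = 0.883). By number the differences were -0.49, 0.67 and -0.44, which do not share a sign.

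Socs1 (chromosome 16, 10782240 to 10785536) had control values of 131, 77.0 and 42.6 CPM against desIgf1 values of 149, 102 and 50.9 CPM. The order of the numbers was the same in both groups, and within each number the desIgf1 library was the higher, by 0.19, 0.40 and 0.26 in log2 CPM. Without the block the log2 fold change was 0.27 ± 0.49 (adjusted p = 0.891). With it the value was 0.28 ± 0.09, and it still did not pass (adjusted p = 0.267).

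Cish (chromosome 9, 107296026 to 107302784) measured 361, 445 and 196 CPM across the controls and 407, 386 and 282 CPM across the desIgf1 libraries. Control library 3 was the lowest of the 6 and control library 2 the highest, so the desIgf1 values fell inside the control range. The log2 fold change was 0.10 ± 0.29 (adjusted p = 0.933), and by number the differences were 0.17, -0.20 and 0.52.

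Pim1 (chromosome 17, 29490753 to 29496112) had control values of 238, 245 and 94.8 CPM against desIgf1 values of 151, 160 and 100.1 CPM. Controls 1 and 2 were above all desIgf1 libraries and control 3 below them. The log2 fold change was -0.49 ± 0.36 (adjusted p = 0.704), and with the block -0.40 ± 0.16 (adjusted p = 0.348). Numbers 1 and 2 differed by -0.66 and -0.61 and number 3 by 0.078. Without both number 3 libraries the blocked fit, which then has 4 libraries, gave a fall by 0.63 (adjusted p = 0.0129), in a setting that called 7.64% of all genes.

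**Figure D2:**
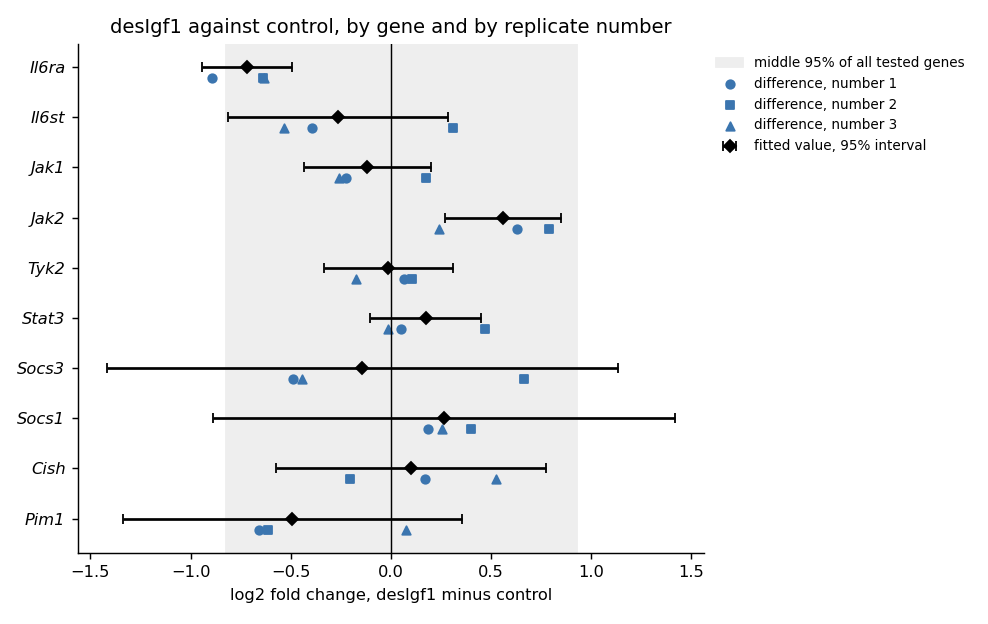
Fitted log2 fold change of each gene, desIgf1 minus control, with its 95% interval from edgeR without the block (diamonds) and the difference in log2 CPM for each replicate number (blue symbols). The intervals of Il6ra, -0.94 to -0.50, and Jak2, 0.27 to 0.85, lie to one side of 0, and the grey band spans the middle 95% of all tested genes, from -0.82 to 0.93.

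Over the 10 genes, 0 passed edgeR's test without the block, where 0% of the 13846 genes tested were called. limma voom also called 0 of the 10, and DESeq2 called 2, Il6ra and Jak2, where it called 1.46% of all genes. With the replicate number as a block edgeR called 0 of the 10 against 0.318% of all genes. At an unadjusted p under 0.05 there were 2 of the 10 without the block, where 8.16% of all genes were as low, and 4 of the 10 with it, where 14.3% were. Groups did not overlap for 2 of the 10, against 13.5% of all tested genes, and the desIgf1 to control difference had 1 sign in all 3 numbers for 3 of the 10 (Il6ra, Jak2 and Socs1), against 38% of all tested genes. The last 2 shares are near the background. The median log2 fold change of the 10 was -0.064, and that of all tested genes -0.0052.

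In the blocked fit without the number 2 libraries 4 of the 10 passed, where 4.42% of all genes did. Il6ra (log2 -0.76, adjusted p = 1.88e-04), Il6st (-0.46, 0.00904) and Socs3 (-0.47, 0.00724) fell and Jak2 (0.44, 0.0242) rose. Without the number 3 libraries 3 of the 10 passed, Il6ra (-0.77, 0.00700), Jak2 (0.71, 0.0151) and Pim1, and without number 1 none of the 10 did, where 0.513% of all genes were called. Il6st and Socs3 were thus called only when number 2, in which both were higher with desIgf1, was left out, and Pim1 only when number 3 was.

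The share of the variance of log2 CPM over the 6 libraries that went with the group was 95.8% for Il6ra and 83.0% for Jak2, and the share that went with the replicate number was 1.48% and 2.75%. For the 4 genes Socs1, Socs3, Cish and Pim1 the number took 95.1%, 85.5%, 81.9% and 76.3%, and the group 4.47%, 0.388%, 4.22% and 13.8%. Over all tested genes the median share was 44.8% for the number and 17.8% for the group. The number has 3 levels and so more degrees of freedom than the group, and noise alone would on average give it the larger share. These medians therefore do not show that the number outweighed desIgf1 over all genes. Number 3 was the lowest library of both groups in 4 of the 10 genes, those same 4, and in 19.7% of all tested genes. Tyk2 also followed the number (83.6%), but was highest in both number 3 libraries. On the first principal component of all genes, which held 43.5% of the variance, both libraries of number 3 lay away from the rest, and the part of this in the feedback genes was not tested.

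**Figure D3:**
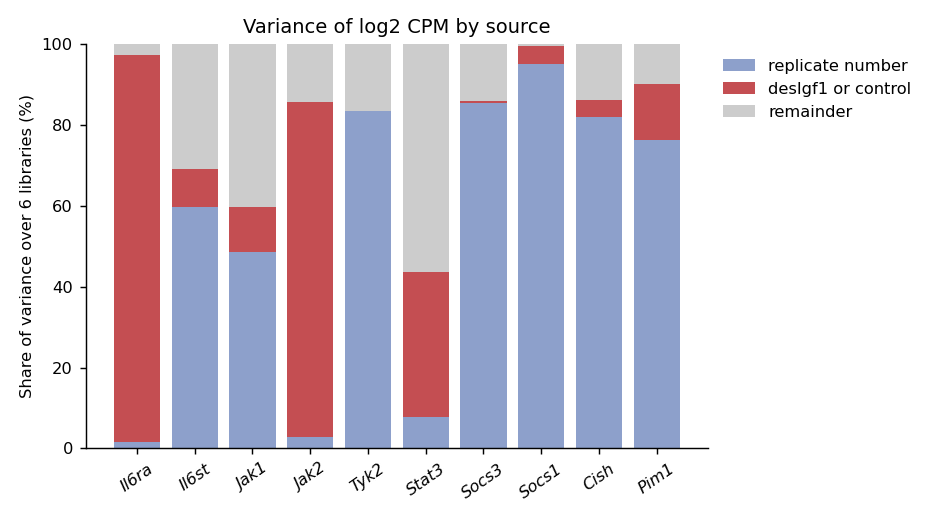
Share of the variance of log2 CPM over 6 libraries (%) that went with the replicate number (blue), with desIgf1 or control (red) and the remainder (grey). The number has more degrees of freedom than the group, so blue and red are not like measures. Red fills most of the bar for Il6ra (95.8%) and Jak2 (83.0%), and blue most of it for Socs1 (95.1%), Socs3 (85.5%), Tyk2 (83.6%), Cish (81.9%) and Pim1 (76.3%).

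The order of levels was read per exon length, in TPM, from counts divided by merged exon length and scaled to the library. In controls Jak2 was highest at 496 ± 29.0 TPM, followed by Jak1 at 436 ± 73.8, Socs3 at 407 ± 275, Stat3 at 242 ± 16.1, Pim1 at 224 ± 97.9, Cish at 203 ± 76.3 and Socs1 at 112 ± 60.0 TPM. Il6ra at 87.5 ± 3.42, Il6st at 83.5 ± 27.7 and Tyk2 at 74.4 ± 13.4 TPM were the lowest. Every pair of neighbours in this order overlapped in its range over the controls. With desIgf1 Jak2, at 726 ± 101 TPM, was above Jak1, at 398 ± 12.7 TPM, in every library, and Il6ra, at 52.6 ± 3.99 TPM, was the lowest of the 10 and below Il6st (68.8 ± 5.17) and Tyk2 (73.0 ± 4.57) in every library. The place of Jak2 depends on the length used: with the longest transcript in place of merged exons its control mean was 373 TPM and that of Jak1 482 TPM, so Jak1 came first in controls, and with desIgf1 the means were 546 and 441 TPM.

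**Figure D4:**
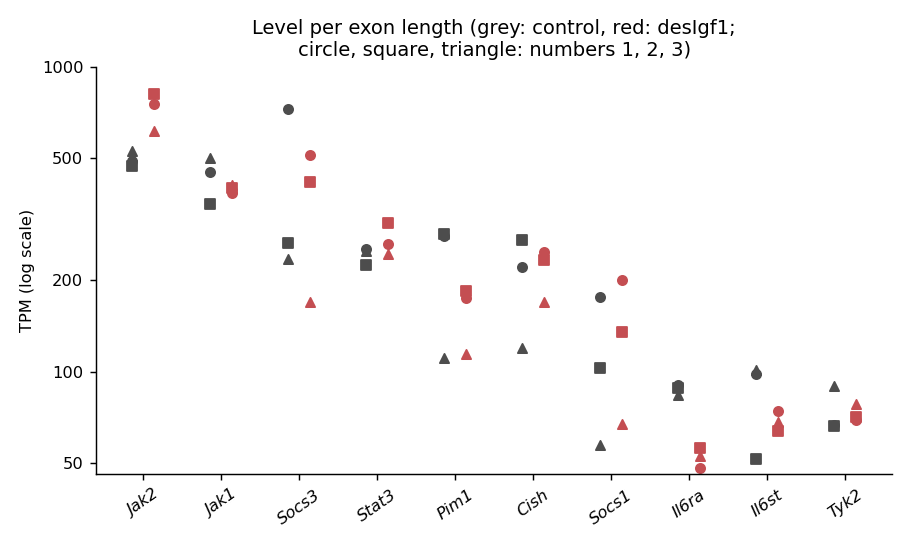
Level per merged exon length in TPM (log scale) for each gene and library, ordered by the control mean. By this length Jak2 has the highest control mean (Jak1 by the longest transcript) and Il6ra, Il6st and Tyk2 the lowest, and with desIgf1 (red) Il6ra lies between 48.4 and 56.4 TPM against 83.8 to 90.5 TPM in controls (grey).

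The wider pathway was described by 6 lists written from its roles, with 76 genes beside the 10, of which 66 were tested; some stand in more than 1 list. Over these edgeR without the block called 0, limma voom 0, the blocked fit 1 (Vegfa) and DESeq2 1 (Id2). Over all tested genes these fits called 0%, 0%, 0.318% and 1.46%. At an unadjusted p under 0.05, the counts of each list below stand against 8.16% of all tested genes without the block and 14.3% with it.

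The gp130 family list held 15 ligands, receptors and sheddases, of which 8 were tested and 0 passed edgeR with or without the block, with 0 and 3 at an unadjusted p under 0.05. Transcripts of Il6 itself were at most 7 counts in any library, and the receptor genes Lifr, Osmr and Cntfr at most 4, below the test. All 8 tested genes had a positive log2 fold change (median 0.25), as had 6801 of the 13846 tested genes. The list leaves out the axis genes Il6ra and Il6st, whose log2 fold changes were negative (-0.72 and -0.26). Il27ra, the IL-27 receptor chain that pairs with gp130, averaged 345 ± 71.3 CPM without and 437 ± 39.4 CPM with desIgf1, without overlap (log2 0.34, adjusted p = 0.626). Lif, a gp130 cytokine, measured 1039, 707 and 308 CPM across the controls and 1396, 1044 and 578 CPM across the desIgf1 libraries, higher in each number but overlapping between groups (log2 0.63 ± 0.12 with the block, adjusted p = 0.124). Osm, another ligand of the family, was at 31.5 ± 11.4 and 39.3 ± 11.2 CPM and Il11ra1 at 4.89 ± 1.08 and 6.10 ± 1.60 CPM. Adam10 and Adam17, proteases that can release the IL-6 receptor from the cell surface, had log2 fold changes of 0.056 and 0.028.

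Of the 7 other JAK and STAT genes 0 passed edgeR in either fit (1 and 2 at an unadjusted p under 0.05), and the median log2 fold change was 0.21. Stat4, which carries IL-12 signals, averaged 153 ± 15.8 CPM without and 205 ± 33.1 CPM with desIgf1, without overlap (log2 0.43, adjusted p = 0.526). Jak3, the kinase of the common gamma chain, was at 932 ± 28.9 and 1079 ± 167 CPM (adjusted p = 0.661) and Stat2 at 80.6 ± 15.2 and 99.9 ± 17.0 CPM (0.650).

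Of the 16 other negative regulators 0 passed edgeR in either fit (0 and 2 at an unadjusted p under 0.05), and the median was -0.023. Socs2, a STAT5-induced relative of Cish, had control values of 129, 196 and 50.4 CPM against desIgf1 values of 81.5, 51.2 and 45.3 CPM. Each desIgf1 library was below its control, but control 3 was below desIgf1 libraries 1 and 2. The log2 fold change was -1.08 ± 0.47 (adjusted p = 0.609, and 0.307 with the block). The JAK and STAT phosphatase genes Ptpn2, at 95.1 ± 9.65 and 113 ± 13.5 CPM, and Ptpn1, at 570 ± 17.6 and 511 ± 50.3 CPM, differed in opposite directions without passing (adjusted p = 0.630 and 0.680), and Ptpn11 had a log2 fold change of -0.16.

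Of 25 tested STAT3 target genes, 4 had an unadjusted p under 0.05 without the block and 8 with it. Over all tested genes the shares were 8.16% and 14.3%. After adjustment 0 passed without the block and 1 rose in the blocked fit, where 0.181% of all genes were called higher. That gene was Vegfa, a vascular growth factor also induced by low oxygen. It averaged 44.2 ± 21.6 CPM without and 91.8 ± 45.5 CPM with desIgf1, higher in each number but overlapping between groups. With the block its log2 fold change was 1.06 ± 0.09 (adjusted p = 0.0332). Without the block edgeR gave 1.05 ± 0.51 (adjusted p = 0.628), and DESeq2 gave an adjusted p of 0.620. The median of the list was 0.15, with 16 genes above 0 and 9 below. The list leaves out the feedback and target genes of the axis, Socs3 (log2 fold change -0.14), Pim1 (-0.49), Socs1 (0.27) and Cish (0.10). The Th17 cytokines Il17a (log2 0.68) and Il17f (0.61) and the nuclear receptor gene Rora (0.58) were higher in every desIgf1 library without passing (adjusted p = 0.441, 0.452 and 0.455), and cells were sorted on the Il17a reporter. Il10, an anti-inflammatory cytokine, was at 1.83 ± 0.534 and 0.726 ± 0.287 CPM, lower in every desIgf1 library (log2 -1.33, adjusted p = 0.489).

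Of 12 genes of the IL-2 receptor and STAT5 list 0 passed edgeR in either fit (1 and 4 at an unadjusted p under 0.05), and the median was 0.18. Id2, an inhibitor of E proteins, averaged 240 ± 11.1 CPM without and 329 ± 38.9 CPM with desIgf1, without overlap (log2 0.45, adjusted p = 0.394), and was the 1 gene of these lists that DESeq2 called. Il2rb was at 703 ± 90.2 and 831 ± 94.2 CPM and Bcl6 at 89.4 ± 36.6 and 115 ± 7.58 CPM. Among 5 genes around the PIM kinases 0 passed edgeR in either fit (0 and 1 at an unadjusted p under 0.05). Pim2 was at 182 ± 18.7 and 142 ± 37.5 CPM (log2 -0.36, adjusted p = 0.634), Pim3 at 45.0 ± 10.2 and 40.0 ± 5.59 CPM, and the survival genes Bcl2l1 and Bad had log2 fold changes of -0.10 and 0.022.

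**Figure D5:**
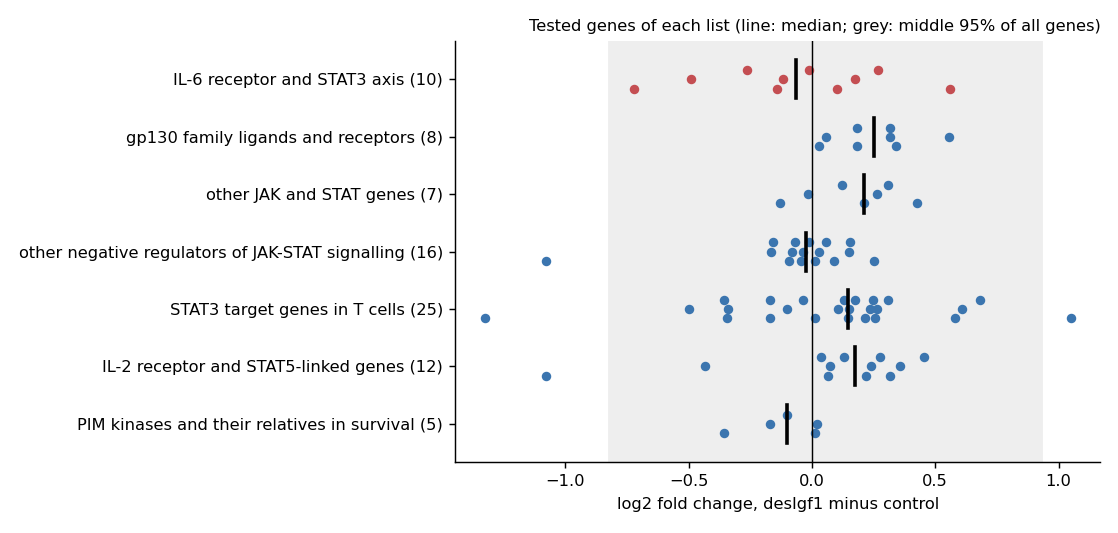
Log2 fold change, desIgf1 minus control, of every tested gene in each list (points, with the number of genes in brackets), the list's median (line) and the middle 95% of all tested genes (grey band). The 10 axis genes range from -0.72 (Il6ra) to 0.56 (Jak2). All 8 tested genes of the gp130 family list, which leaves out Il6ra and Il6st, lie above 0.

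Each gene of the axis had 1487 to 44380 counts in every library, out of 34567899 to 47929948 counts in genes. The counting error at the lowest of these is 2.59% of the value, against an SD between libraries of 3.86% of the mean (Jak1 with desIgf1) to 67.2% (Socs3 in controls). As a check of cell identity, T cell markers summed to 6167 to 6226 CPM in controls and 6247 to 7034 CPM with desIgf1, and markers of dendritic cells to at most 3.31 CPM and of natural killer cells to at most 8.59 CPM. B cell markers summed to 68.7 to 174 CPM in controls and 56.6 to 97.5 CPM with desIgf1, mostly Ighm, and CD8 markers to at most 11.0 CPM. Of these markers Xcr1, Siglech and Ncr1 had 0 counts in every library.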

How the data were processed

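For each of 6 libraries the authors deposited raw counts, whole numbers listed by Ensembl gene, without normalization. Per the submitters' processing notes, the build was GRCm38 (mm10) and the software comprised STAR 2.5.3, HTSeq 0.7.2, Trim Galore 0.4.5, R 3.4.3 with DESeq2 1.18.1, and SAMtools 0.1.18. The annotation release is not given in these sources, nor is the strand setting, other than by the word reverse in file names. Reads placed more than once (46.4 to 48.7% of entries) are not in the gene counts, and the 5 summary lines stayed out of library sizes. GENCODE M21 (GRCm38) gave symbols, coordinates and lengths for 37693 of 39179 identifiers.

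Genes were tested across the whole table in R 4.3.3 with edgeR 4.0.16: filterByExpr (minimum count 10), TMM factors, robust quasi-likelihood fit, group as the only term, Benjamini-Hochberg adjustment over 13846 genes, threshold 0.05. Standard errors are the log2 fold change over the square root of F, and intervals use the fit's degrees of freedom (95%). CPM use TMM factors, and log2 CPM a prior count of 2. DESeq2 1.42.0 and limma 3.58.1 (voom) were alternatives. The fits were also run on simulated data with known changes larger than those of the 10 axis genes. That run does not show how well changes of their size are recovered.

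Each group's titles carry the numbers 1 to 3. After subtraction of each group's mean, libraries sharing a number correlated across genes at 0.59 (1), 0.32 (2) and 0.55 (3), so the numbers were taken to pair the libraries. This rests on the data, since no label says so. Values with the number as a block stand beside only some results. In the Results, log2 fold changes and adjusted p given without a named fit are from edgeR without the block. All 10 axis genes are named. From each list the 4 genes of smallest p at a mean of at least 1 CPM are named, with every gene called in either fit, and the 5 genes most like Il6ra. Markers, and other genes given to describe a list, were picked with their values in view, and 1 naive T cell marker is not reported here. The members and lists were chosen with earlier results of these data known.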

Additional observations from a re-analysis of the deposited data

How the results depend on the processing

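The directions of Il6ra, Il6st, Jak1, Jak2, Stat3 and Pim1 held in all 17 alternatives. Over all genes, DESeq2 called 202, edgeR without the low-count filter 16, the replicate block 44, and the block with GC and length correction 26, against 0; the blocked fits without number 1, 2 or 3 called 72, 620 and 1069, with 1 residual degree of freedom. Of the 10 axis genes, DESeq2 called 2, edgeR without the filter 1, and the blocked fits without number 1, 2 or 3 called 0, 4 and 3. Of the 66 other pathway genes, DESeq2, the block, and the block with GC and length correction each called 1, and the blocked fits without number 1, 2 or 3 called 2, 7 and 10. The block changed no other call.

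Signs turned for the other 4. Tyk2 was at 0.0026 under limma voom and 0.036 with the block and the correction, and ran from -0.095 to 0.14 with 1 library left out and from -0.053 to 0.088 in the blocked fits without 1 number. Socs3 ran from -0.46 to 0.57 and was at 0.11, -0.47 and 0.089 in the blocked fits, Socs1 from -0.13 to 0.75 and Cish from -0.17 to 0.36 and from -0.014 to 0.35. Scaling moved the median of all genes by no more than 0.0063. The cause was not tested.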
